A study of Mus musculus with 12 samples.

Results

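EB-only accessible domains were the stretches of open chromatin listed in embryoid bodies (EBs) and in none of the later stages of a mouse motor neuron differentiation. A domain was a member when it was at least 150 bp wide, lay on chromosomes 1 to 19, X or Y of the EB list and shared no base with a domain of any width in the 5 other lists. This held for 10978 of 41797 EB domains of that width, or 26.3% (95% Wilson interval 25.8 to 26.7), of 234412 such domains in the 6 lists together. The members were chosen by the domain calls themselves, so their number, their widths and their absence from the other lists are given as a description with no test.

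Open chromatin was measured by ATAC-seq, in which a transposase cuts and tags DNA that nucleosomes leave free. The 12 samples formed 6 groups of 2. All came from mouse embryonic stem cells (ESCs) that were grown into floating aggregates, the EBs, with no patterning signal until day 0. EBs were of the line Ainv15(iCre) and had received neither of the agents used later. Day 2 progenitors were of the same line after 2 days in 1 µM all-trans retinoic acid (RA) and 0.5 µM of the Hedgehog pathway agonist SAG. The 4 groups at day 4 had RA and SAG throughout. iHoxc6, iHoxc9 and iHoxc10 cells, of the lines Ainv15(iFlag.Hoxc6), Ainv15(iFlag.Hoxc9) and Ainv15(iFlag.Hoxc10), were also given doxycycline (Dox, 3 µg/mL) over the final 48 h to switch on the Hox gene. The no Dox control was the Ainv15(iFlag.Hoxc6) line left without it. Per the study's methods the Flag-tagged transgenes sat as 1 copy in the Hprt locus, so each Hox condition rested on 1 engineered line. Per the study's account the day 4 cultures held interneurons beside motor neurons. Stage and line cannot be told apart between EBs and the day 4 groups, while EBs and day 2 progenitors shared a line.

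The authors made 1 list from both replicates of each group and deposited no list of a single replicate, which leaves the replicate error unknown and allows no test between samples. The lists held 56232 to 94875 domains on these chromosomes, with coordinates only and no signal height, so that the depth behind a domain is unknown. Absence from a list meant that no domain was called there and not that the site was measured as closed. The no Dox list had 6 columns where the others had 3 and its calling settings may differ. Its name as deposited gives another day than day 4, and the sample labels were followed. With that list left out, the EB-only domains numbered 11532.

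ESCs and early EBs are pluripotent: they can still form every tissue of the embryo. Oct4 (encoded by Pou5f1), Sox2 and Nanog hold this state by binding enhancers together, Oct4 at a string called the octamer and Sox2 at a short string that often lies beside it. Naive factors such as Klf4, Klf5, Esrrb and Tfcp2l1 add to this network in the earliest state, and Otx2, Zic and Tcf factors act as cells move on towards the formative and primed states that precede lineage choice. During RA and Hedgehog signalling the network is shut down and neural Sox and homeodomain factors take over.

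The label was checked against promoters of marker genes, a promoter being called held when a domain lay within 1 kb of a transcription start site (TSS) of the gene. Of 8 pluripotency markers, 7 had their promoter held in EBs. The exception was Dppa3, which was held in no list. The promoters of Pou5f1 and Nanog were held in EBs alone, those of Zfp42 and Tdgf1 in EBs and day 2 progenitors (at Tdgf1 by different domains), and those of Sox2, Esrrb and Klf4 in all 6 lists. Promoters of all 15 neural, motor neuron, mesoderm and endoderm markers were held in EBs too. They were also held in every later list, except that of T, a mesoderm gene, which no day 4 list held, and that of Chat, which iHoxc9 did not hold.

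The first sequences shown are parts of EB-only domains near core and naive pluripotency genes, because they carry the octamer, which the members held more often than the other EB domains. They were picked for this string and are not typical. Most of the 34 members at core genes and 44 at naive genes did not hold it, and over whole domains 5.21% of all members did. All stretches are read on the plus strand of GRCm38 (mm10). Capitals mark the octamer, ATGCAAAT on either strand, and in the Nanog domain a joined Oct4 and Sox element in a relaxed form, for which 1 Sox base may be A or T and 7 octamer letters are required. The Nanog stretch ends at the base before the annotated gene start.
Nanog (chr6:122707321-122707488): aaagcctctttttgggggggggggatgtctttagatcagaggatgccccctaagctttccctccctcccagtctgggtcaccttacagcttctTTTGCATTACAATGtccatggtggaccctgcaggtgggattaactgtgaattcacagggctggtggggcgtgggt
L1td1 (chr4:98727928-98728127): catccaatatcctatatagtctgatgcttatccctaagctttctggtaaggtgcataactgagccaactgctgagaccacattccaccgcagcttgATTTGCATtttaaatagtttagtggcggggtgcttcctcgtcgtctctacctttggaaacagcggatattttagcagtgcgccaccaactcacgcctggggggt
Tdh (chr14:63500479-63500678): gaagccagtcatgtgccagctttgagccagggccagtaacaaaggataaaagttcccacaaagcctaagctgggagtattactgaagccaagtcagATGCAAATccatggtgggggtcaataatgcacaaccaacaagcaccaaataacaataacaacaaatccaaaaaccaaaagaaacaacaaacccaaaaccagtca
Klf5 (chr14:99340164-99340363): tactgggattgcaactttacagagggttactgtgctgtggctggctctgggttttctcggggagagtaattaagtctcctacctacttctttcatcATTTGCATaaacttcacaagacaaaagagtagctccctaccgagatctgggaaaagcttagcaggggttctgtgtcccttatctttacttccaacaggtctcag
Esrrb (chr12:86470988-86471174): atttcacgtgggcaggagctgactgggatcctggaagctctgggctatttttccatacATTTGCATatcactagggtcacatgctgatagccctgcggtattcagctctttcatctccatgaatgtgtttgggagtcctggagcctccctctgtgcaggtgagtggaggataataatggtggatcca
Zfp42 (chr8:43407583-43407782): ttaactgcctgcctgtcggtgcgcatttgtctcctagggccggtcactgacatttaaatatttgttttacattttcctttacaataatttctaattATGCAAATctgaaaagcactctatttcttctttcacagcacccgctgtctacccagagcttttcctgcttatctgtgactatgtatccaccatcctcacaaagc
Dppa3 (chr6:122624541-122624740): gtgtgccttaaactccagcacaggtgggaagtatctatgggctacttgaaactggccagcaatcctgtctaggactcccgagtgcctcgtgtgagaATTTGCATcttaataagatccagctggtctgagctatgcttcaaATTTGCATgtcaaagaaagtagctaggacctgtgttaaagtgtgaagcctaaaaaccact
The next 2 stretches belong to the cluster at Pou5f1 that later lists did not hold, and capitals mark the Klf string, CCACNCCC on either strand.
Pou5f1 upstream (chr17:35503848-35504047): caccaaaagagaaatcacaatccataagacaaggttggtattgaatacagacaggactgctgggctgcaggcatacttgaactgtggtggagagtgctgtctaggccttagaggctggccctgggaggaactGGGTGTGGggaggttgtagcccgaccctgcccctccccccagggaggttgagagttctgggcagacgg
Pou5f1 promoter (chr17:35505815-35506014): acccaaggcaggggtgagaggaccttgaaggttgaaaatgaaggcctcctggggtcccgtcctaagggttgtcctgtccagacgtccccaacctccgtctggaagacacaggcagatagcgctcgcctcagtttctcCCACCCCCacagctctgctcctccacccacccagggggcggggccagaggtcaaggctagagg

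Many members were copies of the same repeated sequence, and 3 such stretches are shown from 3 of the 6 largest groups of look-alike members. Capitals mark the 20 bases found most often within each group. Those of group 1, the largest, contain the homeodomain string TAATTA and those of group 5 contain the Zic string CCTGCTG on the minus strand.
Group 1, near Serinc5 (chr13:92687437-92687636): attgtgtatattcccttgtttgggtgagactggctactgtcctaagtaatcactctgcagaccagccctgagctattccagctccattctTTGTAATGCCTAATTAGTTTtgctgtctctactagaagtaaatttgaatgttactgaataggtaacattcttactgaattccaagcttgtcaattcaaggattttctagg
Group 3, near Tmeff2 (chr1:49934789-49934988): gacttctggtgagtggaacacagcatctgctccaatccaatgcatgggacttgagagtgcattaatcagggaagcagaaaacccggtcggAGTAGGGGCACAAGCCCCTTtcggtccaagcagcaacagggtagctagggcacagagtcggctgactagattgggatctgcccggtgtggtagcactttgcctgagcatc
Group 5, near Adam6a (chr12:114287209-114287408): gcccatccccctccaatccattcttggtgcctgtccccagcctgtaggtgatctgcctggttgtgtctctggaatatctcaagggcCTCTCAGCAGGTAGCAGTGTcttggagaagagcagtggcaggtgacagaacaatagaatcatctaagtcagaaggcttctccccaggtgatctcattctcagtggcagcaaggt
The last set comes from a dense cluster of members at the miR-290 genes. The domain lay 729 bp before Mir290a, and its capitals mark the Tead string GGAATG. The 5 mature microRNAs with the seed (bases 2 to 8) AAGUGCU in the RefSeq table for GRCm38.p6 all came from the miR-290 and miR-302 clusters, at both of which an EB-only domain lay within 1 kb of several of the genes, and their seeds are in capitals.
Mir290a upstream (chr7:3217663-3217897): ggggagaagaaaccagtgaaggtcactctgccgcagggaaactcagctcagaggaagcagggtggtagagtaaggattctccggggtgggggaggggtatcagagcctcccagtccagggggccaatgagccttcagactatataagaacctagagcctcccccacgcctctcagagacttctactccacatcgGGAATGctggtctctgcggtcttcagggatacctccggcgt
mmu-miR-291a-3p: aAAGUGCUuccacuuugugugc
mmu-miR-294-3p: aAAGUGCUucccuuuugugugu
mmu-miR-295-3p: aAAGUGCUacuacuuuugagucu
mmu-miR-302b-3p: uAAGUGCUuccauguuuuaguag
mmu-miR-302d-3p: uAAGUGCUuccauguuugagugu

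EBs stood out in how many of their domains no other list held. Against 26.3% in EBs, the share of such domains found in 1 list alone was 8.04% for day 2 progenitors and 4.85% for the no Dox control. It was 2.85% for iHoxc6, 5.14% for iHoxc9 and 2.81% for iHoxc10. These shares are not on equal terms: each day 4 list had sister lists of its own stage that could hold its domains, and EBs had none. The EB list was also the longest, with 94875 domains of any width. The part of either in the difference was not tested. EB-only domains covered 16.3% of the bases in EB domains of this width. The remaining EB domains were mostly shared widely: 20457, or 48.9% of all, were held by every other list. Only 3321 were held by exactly 1 other list, and for 1901 of these the list was day 2, the next stage of the same line. The no Dox, iHoxc6, iHoxc9 and iHoxc10 lists were the sole partner for 554, 530, 220 and 116 EB domains.

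**Figure D1:**
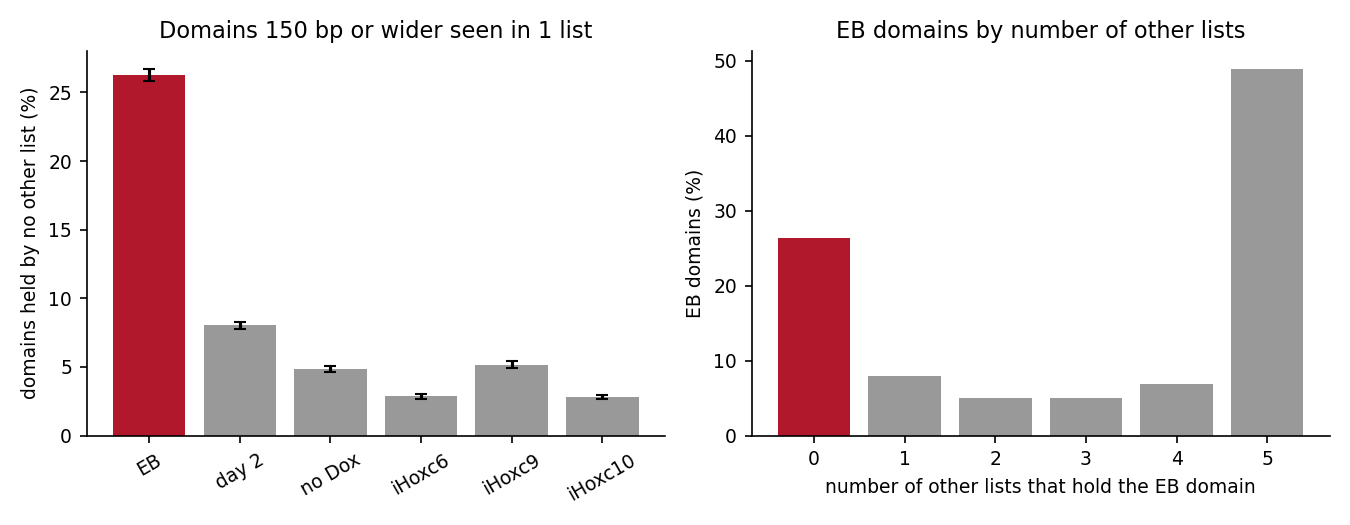
Left, the percentage of domains at least 150 bp wide that no other list held, for each of the 6 lists, with 95% Wilson intervals. Right, the percentage of EB domains held by 0 to 5 of the other lists. EBs reach 26.3% on the left where the other lists lie between 2.81% and 8.04%, and the right panel peaks at both ends, with 26.3% of EB domains in no other list and 48.9% in all 5.

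The members were narrow. Their median width was 248 bp, with 25% below 193 bp and 25% above 346 bp, and the other EB domains had a median of 421 bp. Only 8.46% of EB-only domains reached 500 bp, against 42.0% of the other EB domains. At the edge of the width rule, 618 members were 150 to 159 bp wide, and just outside it 1081 EB domains of 140 to 149 bp also had no overlap. In all, 35057 EB domains narrower than 150 bp overlapped nothing and were not members.

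Most members lay well apart from any later domain. The median gap to the nearest domain of another list was 4819 bp, and for 3135 members (28.6%) it was over 10 kb. It was under 200 bp for 598 members (5.45%), which are the ones just inside the overlap rule. Just outside it, 2345 of the other EB domains (7.61%) were held by overlaps of less than 50 bp. The members were also spread thinly, with a median of 63.4 kb to the next EB-only domain. By chromosome they made up 21.1% of EB domains on chromosome 11 to 29.2% on chromosome 13, with 26.3% on X, and 2 of 36 on Y.

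EB-only domains were mostly distal. A protein-coding TSS lay within 1 kb of 642 members, or 5.85% (5.42 to 6.30), against 47.1% of the other EB domains, a difference of -41.2 percentage points (95% Newcombe interval -41.9 to -40.5). Domains that EBs shared with day 2 alone were between, at 12.5%, and those in all 6 lists reached 62.2%. Of the members, 47.3% were intergenic, 32.4% intronic, 5.82% in coding exons and 1.22% in untranslated exons. Intervals here and below cover the counting of domains only, and neighbouring domains are not independent.

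The median distance from a member to the nearest TSS was 35.0 kb, and 29.0% lay at least 100 kb away. The corresponding values were 2.03 kb and 10.0% for the other EB domains. Domains found in 1 other list alone were as distal: the median was 57.4 kb for day 2-only and 34.4 kb for no Dox-only domains. Promoters made up 3.62% of day 2-only domains and 9.29% of no Dox-only domains, so EB-only domains lay between those sets. The share upstream of the nearest TSS was 46.8%.

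**Figure D2:**
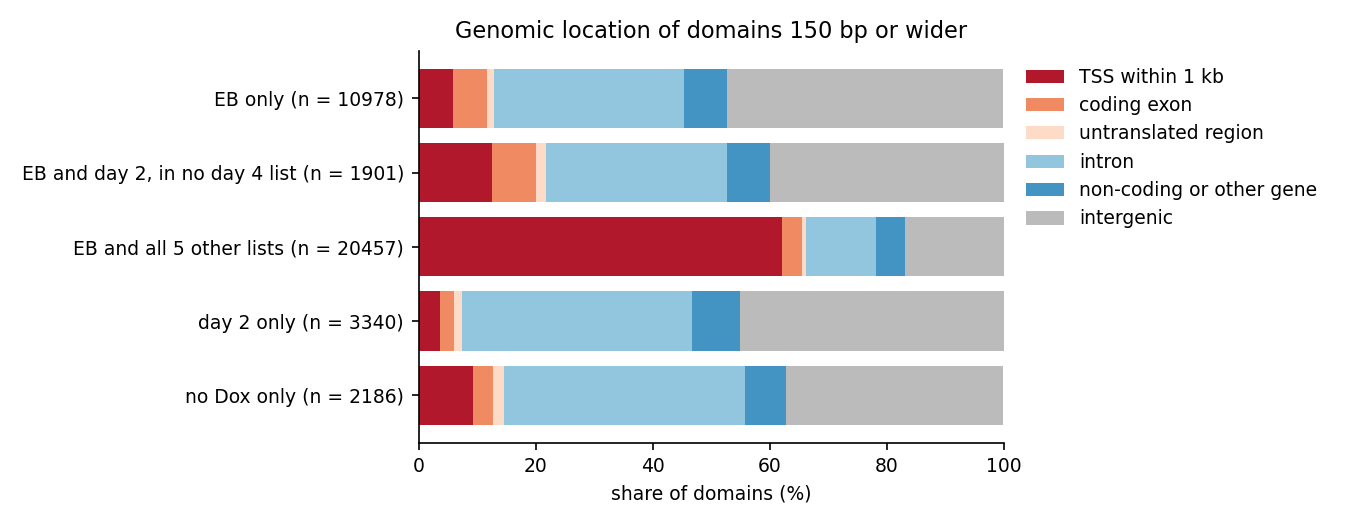
Share of domains (%) by place, for EB-only domains and 4 other sets of domains at least 150 bp wide. The band for a TSS within 1 kb takes 5.85% of EB-only domains, 12.5% of those shared with day 2 alone and 62.2% of those in all 6 lists, while intergenic sequence takes 47.3%, 39.9% and 16.9%.

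Few promoters were open in EBs alone, and those of Pou5f1 and Nanog were among them. Of 14040 protein-coding genes with a promoter domain in EBs, 246 (1.75%) had none within 1 kb of a TSS in any other list. The same count was 16 genes for day 2 and between 3 and 12 for each day 4 list, where sister lists of the same stage could hold the promoter too. Among the 16 core pluripotency genes, 13 had a promoter domain in EBs and 3 of those had it in EBs alone. These were Pou5f1, Nanog and L1td1, which encodes an RNA-binding protein derived from a LINE-1 element. Of 12 germline genes, 7 had a promoter domain in EBs and 4 had it in EBs alone: Ddx4, an RNA helicase of germ cells, Sycp3, of the meiotic chromosome axis, Stk31, a kinase-like testis protein, and Piwil2, which works with small RNAs to silence transposons. Of 12 signalling genes with one, Lefty1, an inhibitor of Nodal, and Bmp4, a ligand of the BMP pathway, had it in EBs alone. No promoter of the naive, formative, neural progenitor, motor neuron, RA response, mesoderm and endoderm or housekeeping lists was held in EBs alone, although each of those lists had 7 to 12 promoters held in EBs.

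Other genes with a promoter held in EBs alone, picked after their values were seen, were Gdf3 and Wnt8a, which encode signalling ligands of the early embryo, Eras, a Ras-like gene of ESCs, and Zscan10, a zinc finger gene of ESCs. Also picked in this way were genes known from meiosis and gametes, namely Dmc1, Brdt, Syce1, Syce3, Tex12, Asz1, Hormad2, Sohlh2, Terb2, Topaz1, Nobox and Zp3. How many of the 246 genes belong to that group was not counted. Genes of other kinds were among the 246 too, such as Krt18, Neurod2, Sox14 and several olfactory receptor genes. The 254 EB-only domains at these promoters had a median of 3.14 CpG per 100 bp and a median GC content of 57.9%. The 388 EB-only domains at other promoters had fewer, at 2.54 CpG per 100 bp, and the 12725 promoter domains found in all 6 lists had more, at 8.03.

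Around single genes, the clearest case was Pou5f1. EBs had 3 domains of at least 150 bp nearest to its TSS, all EB-only, and day 2, no Dox, iHoxc6, iHoxc9 and iHoxc10 had 0 each. They were 433, 687 and 370 bp wide and lay 2.07, 0.970 and 0.103 kb upstream, over the promoter and the stretch where its enhancers lie. The gap to the nearest domain of another list was 5528 bp or more for each.

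Nanog, a homeodomain factor of the core network, had 4 EB domains, of which 2 were EB-only, against 2 at day 2 and 1 in each day 4 list. An EB-only domain of 623 bp covered the promoter and the joined Oct4 and Sox element shown above, and a second of 589 bp lay 8.53 kb downstream of the TSS. The EB domain seen further upstream of the gene was also held at day 2.

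Tdgf1, a co-receptor for Nodal, had 3 EB domains, all EB-only and within 2 kb upstream of the TSS. Of domains at least 150 bp wide, day 2 had 1 there and the 4 day 4 lists had 0. Nodal itself, a TGF-β family ligand of the early epiblast, had 2 EB domains, both EB-only, and every other list had 0 of that width. The larger was 542 bp wide and lay 1.81 kb upstream. Domains of another list, counted at any width, lay 1766 bp from it and 1156 bp from the smaller. At Pou5f1, Tdgf1 and Nodal, no EB domain nearest to the TSS was held at a later stage.

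Sox2 behaved differently. This gene, which also acts in neural progenitors, had 14 EB domains, of which 3 were EB-only. The counts were 26 at day 2, 30 without Dox, and 28, 12 and 23 in iHoxc6, iHoxc9 and iHoxc10 cells. The 3 members lay 41.8, 108 and 137 kb downstream of the TSS, and its promoter was held in all 6 lists.

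**Figure D3:**
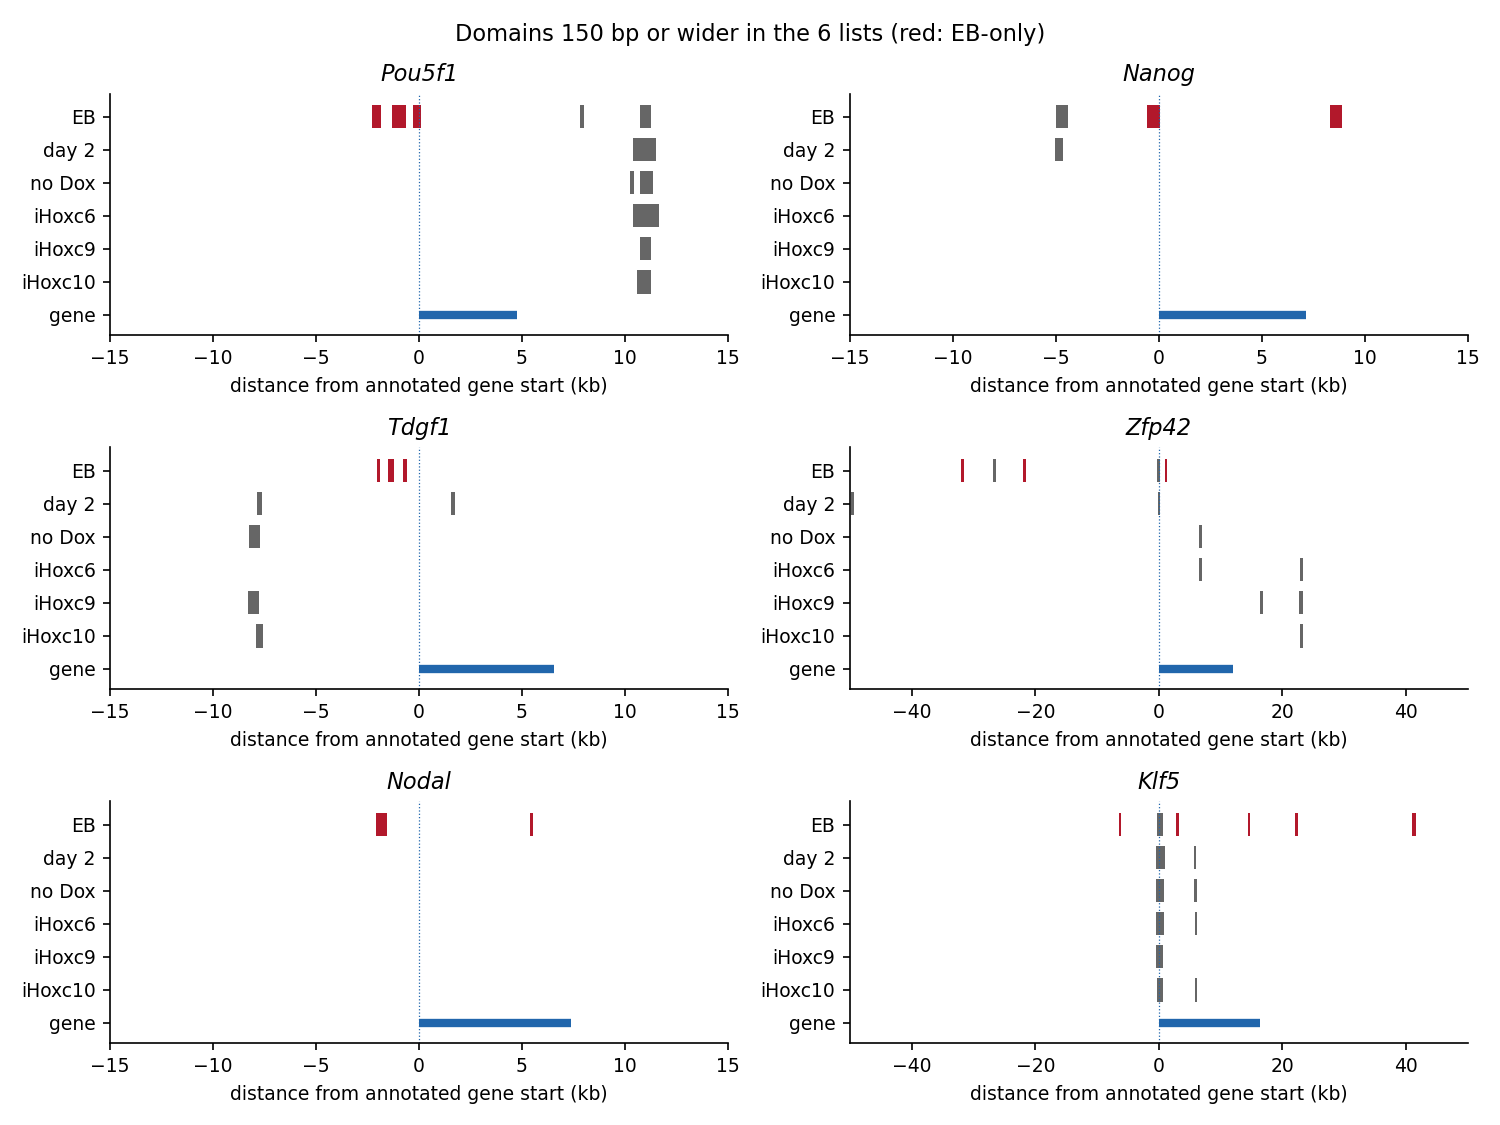
Domains at least 150 bp wide in each of the 6 lists around 6 genes, by distance from the annotated gene start in kb, with EB-only domains in red, other domains in grey and the gene in blue, reading to the right. Narrow domains were drawn at a minimum width. The 3 red blocks at Pou5f1 and at Tdgf1 and the 2 at Nodal are overlapped by no domain of another list. At Klf5 the promoter is held in all 6 lists while 5 red domains stand around it. Domains under 150 bp were not drawn.

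Of the 84 EB domains nearest to the 16 core pluripotency genes, 34 were EB-only, or 40.5% (30.6 to 51.2), where all EB domains gave 26.3%. Taken within 50 kb of a TSS of these genes instead, it was 32 of 98, or 32.7% (24.2 to 42.4), an interval that includes 26.3%. Because promoters were so rarely EB-only, the lists were also read away from promoters, where 38.8% of 26642 EB domains were EB-only. There the core list had 29 of 65, or 44.6% (33.2 to 56.7), an interval that includes 38.8%. Of the 16 genes, 13 had at least 1 EB-only domain. Dppa4, a chromatin-associated protein of pluripotent cells, had 5 of 5, although these lay 20.8 to 262 kb upstream in a span of 903 kb nearest to it, and Dppa2 had 1 of 1. Tdh, an enzyme of threonine breakdown that ESCs depend on, had 3 of 5, and no later list had a domain of at least 150 bp nearest to it. The no Dox and iHoxc10 lists nevertheless each held 1 of its EB domains. Its member with the octamer lay 28 bp from a domain of another list. Zfp281, a zinc finger factor, had 6 of 15. Fgf4, the growth factor that drives exit from the naive state, had 1 of 2, L1td1 2 of 5, Foxd3 2 of 5, Utf1 2 of 6 and Trim71 1 of 7. Sall4 had 0 of 6 and Lin28a 0 of 3.

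The naive list gave 44 of 102, or 43.1% (33.9 to 52.8), and 39 of 83 away from promoters, or 47.0% (36.6 to 57.6), which also includes 38.8%. Members were found at 12 of its 16 genes. Klf5, a zinc finger factor of self-renewal, had 6 EB-only of 9 EB domains. They lay from 6.38 kb upstream to 238 kb downstream, and that at 40.9 kb was 713 bp wide and held an octamer and a Sox, a Tcf and a Zic string. Zfp42, known as Rex1 and a common marker of naive cells, had 4 of 6, of which 3 lay upstream, the nearer at 21.9 and 31.9 kb, and the farthest held the octamer shown above. Esrrb, an orphan nuclear receptor, had 4 of 8, and 2 of these, 310 and 187 bp wide, sat at an internal TSS, while every list held a domain at some TSS of the gene.

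Prdm14, a repressor of differentiation genes, had 3 EB-only of 4 EB domains, and Tbx3 had 4 of 7. Nr5a2, a nuclear receptor, had 7 of 15, and Fbxo15, an early ESC marker, had 8 of 12. Tet2, which oxidises methylcytosine, had 3 of 8. Klf4, by contrast, had 2 of 9, Tfcp2l1 1 of 5 and Dppa3 1 of 3, and Klf2, Nr0b1 and Gbx2 had 0 of 2, 0 of 2 and 0 of 10. The genes of the naive list thus differed widely, from none of 10 EB domains at Gbx2 to 3 of 4 at Prdm14.

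The formative and primed list had the highest share of the 3 pluripotency lists, with 37 of 81 EB domains EB-only, or 45.7% (35.3 to 56.5). All of its members were distal, 37 of 65 or 56.9% (44.8 to 68.2), and this interval lies above 38.8%. Cdh2 alone, in its wide stretch, gave 8 of the 37. The reading within 50 kb of a TSS was made for the core and naive lists and not for this one. Otx2, a homeodomain factor of the formative state, had 4 of 7, with 3 of them 7.82 to 11.1 kb beyond its TSS. The widest, of 934 bp, lay only 10 bp from a domain of another list. Pou3f1, a POU factor of primed cells, also had 4 of 7. Tcf7l1, the Tcf repressor that limits the naive programme, had 5 of 9, and Lef1, which carries Wnt signals, had 6 of 14. Cdh2, encoding N-cadherin, had 8 of 12 in a span of 2212 kb. Dnmt3a had 3 of 10, Dnmt3b 1 of 2 and Fgf5 1 of 3, and Zic2 had 0 of 4.

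Neural progenitor, mesoderm and endoderm genes had lower shares. The neural progenitor list had 10 of 67 (14.9%, 8.31 to 25.3) and the mesoderm and endoderm list 6 of 46 (13.0%, 6.12 to 25.7), both below 26.3%, and away from promoters both stayed below 38.8%, at 10 of 50 (11.2 to 33.0%) and 17.6% (8.35 to 33.5). Of the 6 in the latter list, 4 were at Gsc, a homeodomain factor of the organizer. Pax6, Olig2, Hes5 and Neurog2 had none. The motor neuron list had 15 of 57 (26.3%) and the RA response list 17 of 63 (27.0%), close to all EB domains, with 4 of 10 at Isl1 and 5 of 18 at Meis2. Signalling genes gave 14 of 72 (19.4%) with an upper bound of 30.0% that lies above 26.3%, but away from promoters they lay below 38.8%, at 12 of 56 (21.4%, 12.7 to 33.8). Housekeeping genes gave 4 of 31 (12.9%, 5.13 to 28.9). The germline list had 6 of 11 (54.5%, 28.0 to 78.7), of which 4 were the promoters named above.

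**Figure D4:**
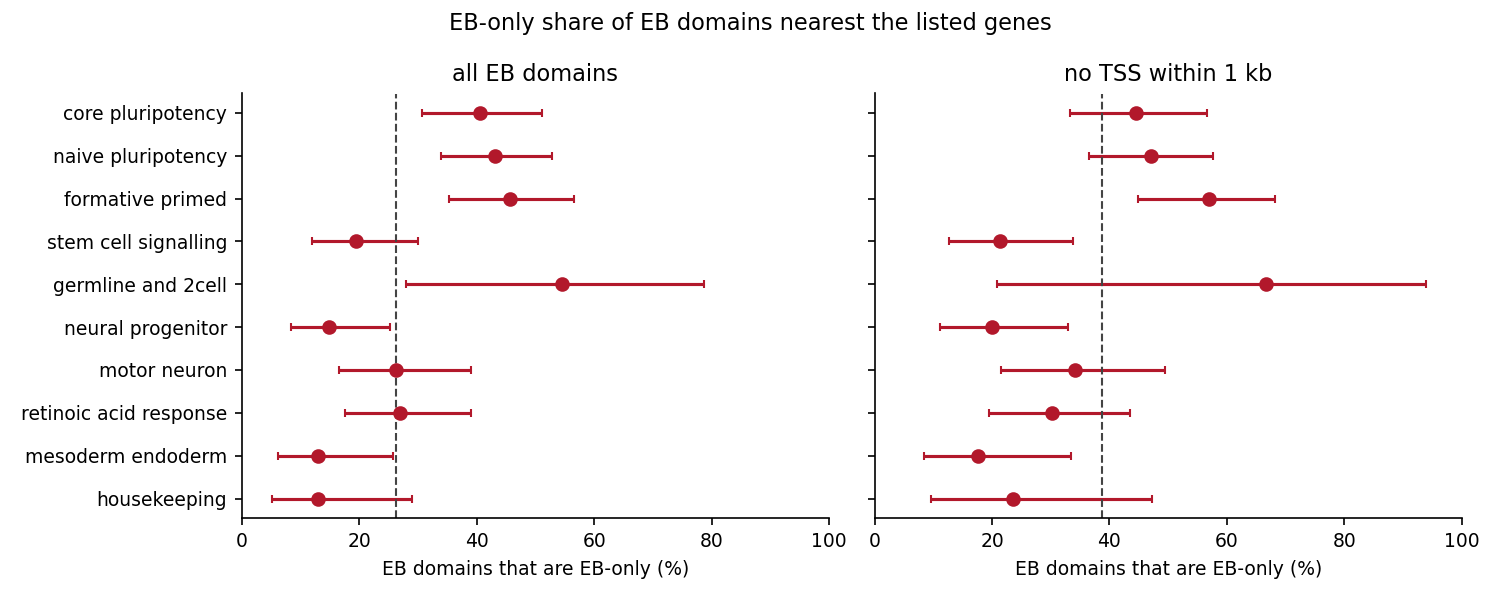
Percentage of EB domains that were EB-only, for domains nearest to the genes of 10 lists, with 95% Wilson intervals. Left, all EB domains, with the dashed line at 26.3%. Right, those with no TSS within 1 kb, with the line at 38.8%. Core, naive and formative genes lie at 40.5%, 43.1% and 45.7% on the left, and on the right only the formative list keeps its interval above the line while the signalling, neural progenitor and mesoderm and endoderm lists lie below it.

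The members were not gathered at few genes. They were nearest to 6137 of 21853 protein-coding genes, of which 3849 had 1, 322 had at least 5 and 41 at least 10. The genes with most members were genes in wide gene-poor stretches: the 15 with most had a median of 2147 kb of sequence nearest to their TSS, against 58.2 kb for genes with any EB domain. Cntn5, a neural adhesion protein, had 20 EB-only of 28 EB domains, Pcdh9, a protocadherin, 17 of 23, Nrxn3, a neurexin of synapses, 16 of 35, and Cdh9, a cadherin, 15 of 19. Arrdc3, Adgrl3, Robo1, Tmem132c, Ryr2, Brinp3, Epha4, Csmd3, Pard3 and Tbl1xr1 had 13 to 15 each. Per length, Cntn5 had 0.890 EB-only domains per 100 kb of its stretch and Pcdh9 had 0.459. Single autosomes had 3.48 to 5.10 per Mb, a length 10 times as great, so Cntn5 lay above that range and Pcdh9 within it. In their much shorter stretches, Tdgf1 had 16.7 per 100 kb, Pou5f1 12.2 and Lefty1 10.5, which rest on 3, 3 and 2 domains. Such values were not confined to pluripotency genes or found at all of them. Rplp0, 1 of the 3 housekeeping genes of 12 with a member, had 9.40 from 1 domain in 10.6 kb, and Sox2 had 0.359.

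Among the 766 genes with at least 8 EB domains, the share that was EB-only was highest for Hnf4g, a nuclear receptor, at 12 of 13 (92.3%). Gm21833, Gm9008 and Iqcm had 9 of 10, and Atxn7l3b, Cdh19, Pdha2 and Tmprss15 had 7 of 8. Ryr2, the calcium release channel, had 13 of 15 and Brinp3 13 of 16. All 10 again lay in stretches of 747 kb or more.

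The widest EB-only domain, of 1456 bp, covered the promoter of Vrtn at chr12:84640833-84642288. The next lay between genes nearest to Mycn (1271 bp), a growth-promoting Myc family gene active in ESCs, and at a promoter of Foxn3 (1262 bp), a forkhead gene. Domains of 1251 bp at Trp73, a relative of p53, and 1207 bp at Map1s lay in coding exons, and that of 1242 bp at Gpc5, a glypican, lay in an intron and held an octamer. Those nearest to Rpl27a, Xkr4, A830018L16Rik and Zfp787 were 1099 to 1203 bp wide. For Vrtn the gap to any later domain was 11739 bp.

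Cut into windows of 50 kb, the genome had 7985 windows with 1 member, 1215 with 2, 150 with 3, 22 with 4 and 5 with 5. The 5 densest were near Gadd45a, a stress-response gene (chr6:67100001-67150000), over the miR-290 cluster beside Nlrp12 (chr7:3200001-3250000), near Rbpms, an RNA-binding protein (chr8:33950001-34000000), near Scaf8 (chr17:3000001-3050000) and near Atl2 (chr17:79950001-80000000). In the window near Gadd45a all 5 EB domains were members and in that of miR-290 5 of 6 were. The Scaf8 window differed, with 15 EB domains and all 5 members made mostly of masked repeats.

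The miR-290 cluster is the main microRNA cluster of ESCs, and its products share a seed with the miR-302 family. In its window, EBs had 8 domains of any width, day 2 progenitors 2, iHoxc6 1 and the no Dox, iHoxc9 and iHoxc10 lists 0. The 5 members were 214 to 590 bp wide, and the closest upstream of the genes is the 235 bp stretch shown above, at chr7:3217663-3217897. MicroRNA genes were looked at because of this window, after its values were seen. Of 2202 in the annotation, 308 had an EB domain within 1 kb and 37 of them (12%) had at least 1 that was EB-only. The 26.3% over all EB domains is a share of domains and not of genes, so the 2 shares cannot be compared directly. A single domain often served several genes. The 5 genes of the miR-302 cluster (Mir302a to Mir302d and Mir367) shared a member of 370 bp at chr3:127544718-127545087. Mir200c and Mir141 shared 1 of 314 bp, and Mir106b, Mir93 and Mir25 1 of 189 bp.

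What the members shared in sequence was not used by the rule. Strings bound by known factors were counted on both strands in the central 150 bp of each domain, so that the length searched was equal. The sets were not matched for width. A match is a string of letters and not a measured binding site. The octamer ATGCAAAT was found in 382 EB-only domains, or 3.48% (3.15 to 3.84), against 1.53% of the other EB domains and 2.04% of all EB domains, a difference of 1.95 points (1.60 to 2.34). In day 2-only domains it was found in 0.958%, and in windows 1 kb to either side of the members in 0.888%. Its rise was thus at the centre of the domains and was not shared by domains found at day 2 alone. EB domains shared with day 2 alone were like the members, at 3.21%, with a difference of 0.271 points whose interval (-0.679 to 1.06) includes 0.

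The octamer difference against the other EB domains held away from promoters, at 1.13 points (0.710 to 1.57). It also held among domains of 45 to 55% GC, at 1.49 points (0.904 to 2.11), and without mostly masked domains, at 2.35 points with a lower bound of 1.94. With these 3 limits together it was 1.65 points (0.973 to 2.37). These subsets were chosen after the data were seen, apart from that away from promoters.

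The Sox string CATTGT was found in 10.5% of members, 5.54% of the other EB domains and 6.85% of all EB domains. In the flanking windows of the members it was found in 9.33%, so the centre (9.98 to 11.1%) stood little above its surroundings. In day 2-only domains it reached 23.1% with 9.51% in their flanks, a difference of -12.6 points (-14.1 to -11.1) for the members against them. Octamer and Sox string stood together in the central 150 bp of 47 members (0.428%), 46 of the other EB domains (0.149%) and 0.223% of all EB domains. In day 2-only domains 10 of 3340 held both (0.299%), and the interval of this share overlaps that of the members (0.322 to 0.569%). The strict joined element, with the Sox string followed at once or after 1 base by the octamer, was in 0 of 10978 members, which allows a share of up to 0.0273%, and in 5 of the other EB domains when whole domains were searched. In the relaxed form 5 members held it anywhere (0.0455%), 1 of them at Nanog, and so did 15 of the other EB domains (0.0487%), so the members did not hold it more often.

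The Zic string CCTGCTG was common and central: 1481 members held it, or 13.5% (12.9 to 14.1), against 3.65% of flanking windows, 8.69% of the other EB domains and 9.95% of all EB domains. In day 2-only domains it was found in 4.82%, a difference of 8.67 points (7.67 to 9.61), and in no Dox-only domains in 5.99%. EB domains shared with day 2 alone were closer to the members, at 11.8%, a difference of 1.65 points (0.00183 to 3.18). Within 45 to 55% GC, away from promoters and without mostly masked domains, the members still exceeded the other EB domains by 3.85 points (2.64 to 5.08), while the difference from those shared with day 2 alone was 0.333 points (-2.36 to 2.76). Over whole domains, which were wider among the other EB domains, the direction turned, with the Zic string in 21.6% of members and 23.9% of the other EB domains.

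The Tcf string ATCAAAG was found in 2.66% of members against 1.33% of the other EB domains (1.68% of all EB domains), and the Otx string GGATTA in 4.98% against 2.69% (3.29%). Neither exceeded its own flanks, which held them in 3.15% and 6.18%, and day 2-only domains held them in 2.93% and 5.48%. With limits on place, repeats and GC together, both still exceeded the other EB domains, by 1.26 points (0.670 to 1.89) and 2.00 points (1.20 to 2.83). The AP-1 string TGANTCA was found in 5.59% against 2.83% (3.56%), with 4.23% in its flanks and 5.66% in day 2-only domains. Under the same limits it exceeded the other EB domains by 1.63 points (0.811 to 2.48). The Tead string GGAATG was found in 9.30% against 6.64% (7.34%), and the homeodomain string TAATTA in 3.40% against 1.65% (2.11%). Both were more frequent in day 2-only domains, at 14.5% and 6.50%, and the homeodomain string was more frequent in the flanks of the members, at 4.96%. Within the 3 limits on place, repeats and GC, the Tead difference from other EB domains was 0.590 points with an interval (-0.480 to 1.69) that includes 0. The homeodomain difference was 0.0323 points (-0.555 to 0.651) within them, and 0.0337 points with the limit on GC alone.

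Strings of naive factors were not raised in the same way. The Klf string CCACNCCC was in 6.80% of members and 8.67% of the other EB domains (8.18% of all EB domains), a difference of -1.87 points (-2.43 to -1.29), and GC content moved with it: within 45 to 55% GC the sign turned, to 0.757 points (0.0126 to 1.52). Against day 2-only domains, at 3.08%, the members were higher by 3.72 points (2.93 to 4.44), and against their flanks, at 4.03%, they were higher too. The Esrrb string TCAAGGTCA was in 24 members (0.219%), 0.143% of the other EB domains and 0.163% of all EB domains, and the difference of 0.0758 points (-0.0109 to 0.188) includes 0. The CTCF core letters AGGGGGC were in 3.76% against 7.99% (6.88%), and a CpG in 74.4% against 92.5%.

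**Figure D5:**
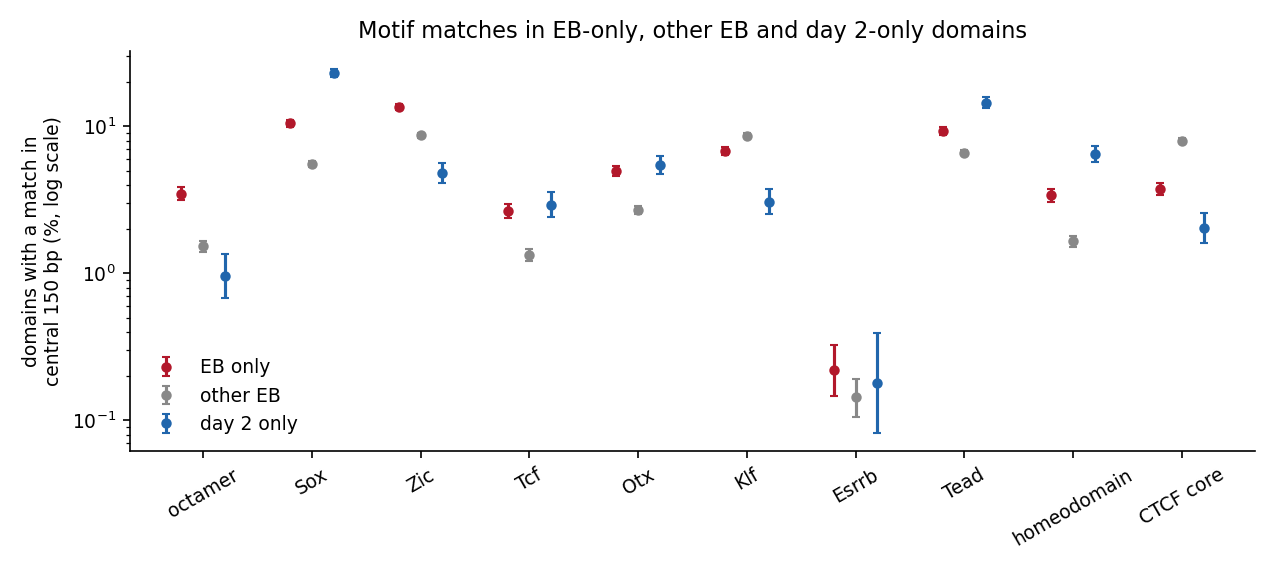
Percentage of domains with a match in their central 150 bp, on a log scale, for 10 strings in EB-only, other EB and day 2-only domains, with 95% Wilson intervals. The octamer lies at 3.48%, 1.53% and 0.958% and the Zic string at 13.5%, 8.69% and 4.82%, so both are highest in EB-only domains, while the Sox string is highest in day 2-only domains at 23.1%.

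The second shared property was repeat content. The reference marks interspersed and simple repeats in lower case, and 2419 members (22.0%, 21.3 to 22.8) were mostly, over 50%, of such sequence. The other EB domains had 2.81%, and day 2-only and no Dox-only domains, which were as distal, had 4.37% and 5.90%. EB domains shared with day 2 alone lay between, at 9.84% (11.1% away from promoters), and the members exceeded them by 12.2 points (10.6 to 13.7). Away from promoters the members had 23.2% and the other EB domains 5.13%, a difference of 18.1 points (17.2 to 18.9). How reads that map to several places were treated is not given in the sources used here, and its part in this difference was not tested.

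Part of the members came in families of like sequence. When domains with at least 60 shared 16-base words were linked, 1198 members (10.9%) fell into 70 groups, the largest of 442. With 30 shared words as the limit, 1973 of the 10978 members fell into 97 groups, the largest of 1044. With 60 words, the other EB domains had 3.32% in groups, with at most 85 together, and day 2-only and no Dox-only domains had 2 grouped domains each. Those last sets held only 3340 and 2186 domains. Links were sought within a set, and a smaller set offers fewer pairs, so these shares are not on equal terms. Words found in very many domains of a set were left out. Grouped members were further from genes than the rest, with a median of 95.7 kb against 31.0 kb to a TSS, and 91.3% of them were mostly masked. Of the mostly masked members, 1094 were in a group and 1325 in none. All grouped members together, masked or not, held the octamer in 1.75% against 3.69% of all ungrouped members, and the Klf string in 1.84% against 7.41%.

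Group 1, of 442 members on 20 chromosomes, had a median GC content of 42.9%, and 58.4% of it held the homeodomain string and 47.5% the Sox string anywhere in the domain. Its commonest 20 bases stood 329 times in the genome, and 26.1% of these copies lay in EB-only domains. The 20 bases of each group were picked from the members, which by the rule overlap no later domain, so these shares are a description and later lists were not compared.

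Group 3, of 159 members that were all mostly masked, had 349 copies of its string, of which 107 (30.7%) lay in EB-only domains. Group 5, of 66 members, held the Zic string in 62 of them, and 59 of the 291 copies of its 20 bases (20.3%) lay in members. Group 6, of 37 members, had 24.6% of 130 copies in members. Groups 2 and 4, of 199 and 73 members, were parts of far more frequent repeats, with 2.76% of 8158 and 0.739% of 9335 copies in members.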

How the data were processed

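Chromatin accessibility was measured by paired-end ATAC-seq in 12 samples (2 in each of 6 groups). Per the study's methods the authors mapped reads to mm10 with Bowtie2 and defined domains with DomainFinder, and the submitters' processing notes name Bowtie2 2.2.2 and Picard 2.8.2. The deposited values are domain coordinates in bp, of no standard unit, in 1 list per group from both replicates. For composite plots they removed reads on mitochondrial DNA or in unannotated regions. Filters and thresholds of the domain calls and the treatment of multi-mapping reads are not given in the sources used here. Starts were read as counting from 0 and are printed counting from 1, and since their base is not stated positions may be off by 1 bp.

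The members, gene lists and strings were chosen with earlier results of these data known. Domains on 21 chromosomes were used unmerged, and 0 ended past a chromosome end of GRCm38.p6. Genes and TSSs were from GENCODE M21 and microRNA sequences from RefSeq (GRCm38.p6). Each domain was assigned to the nearest protein-coding TSS, measured from its midpoint. Shares have 95% Wilson intervals and differences 95% Newcombe intervals. A count of 0 was given the limit of 3 counts. 25 strings were searched. Named genes were the list members with EB-only domains, the 15 genes with most, the 10 with the highest share among those with at least 8 EB domains, and those nearest to the 10 widest domains and the 5 densest windows of 50 kb. Others are said to be picked after their values were seen, and some genes that the rule names are not reported here. Python 3.11.15, NumPy 2.4.6, SciPy 1.17.1 and Matplotlib 3.10.9 were used, and 7 checks on simulated data found 0 differences.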

Additional observations from a re-analysis of the deposited data

How the results depend on the processing

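Over 9 results and 17 alternatives (4 chosen after the data were seen), 91 values were recomputed, of which 67 stayed within their counting interval or, for the number of domains, within 1.5 times, and 24 moved. Some moves followed from the construction of the alternative, and for the rest the cause was not tested. With domains of at least 100 bp, the median width was 194 bp, the octamer share 3.15% and the Klf share 7.36%. With at least 200 bp, the width was 296 bp and the Klf share 6.17%. With at least 300 bp, there were 3824 EB-only domains of median width 394 bp, with the octamer in 2.98% and the Klf string in 5.88%. The promoter share was 4.73% when no other domain was allowed within 500 bp, 6.49% against the day 2 and no Dox lists alone, 15.7% and 3.64% with a TSS within 5 kb and 250 bp, 12.4% with the TSSs of all genes and 7.23% without mostly masked domains. When only other domains of at least 150 bp counted as overlaps, the promoter share was 7.36%, the width 255 bp, and 55.9% of EB domains at naive and 56.0% at core genes were EB-only, where all EB domains gave 37.6%. Within 50 kb of a TSS, 32.7% of EB domains at core genes were EB-only. Over whole domains the octamer was in 5.21%, the Klf string in 12.9% and the Esrrb string in 0.510%. Within 45 to 55% GC (chosen after the data were seen) the octamer was in 4.27% and the Klf string in 6.23%. Over 8 of these settings the members exceeded the other EB domains by 1.61 to 2.35 points for the octamer and 3.70 to 5.21 for the Zic string. Over whole domains the Zic direction turned, with 21.6% of members and 23.9% of the other EB domains. No paired analysis was possible because each list pools both replicates of its group. Depth is unknown, and its part in the absence of a domain from a list was not tested.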
